A study of Mus musculus with 12 samples.

Results

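Amino acids cross the plasma membrane on carriers, and 10 genes for such carriers are described here in 3T3-L1 cells, mouse preadipocytes in culture that hormones turn into fat cells. The genes are Slc3a2, Slc7a5, Slc7a6, Slc7a11, Slc43a2, Slc7a1, Slc1a4, Slc1a5, Slc38a1 and Slc38a4. They were taken by symbol from the Ensembl identifiers of the count table. All 10 were found among its 55414 identifiers, and all 10 had enough counts to be among the 14435 genes tested.

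RNA was sequenced from cells that carried an FHL2-GFP construct or a CTRL-GFP construct, each at 2 times, which gave 4 groups of 3 libraries. Cells of day 2 had received 170 nM insulin, 1 uM dexamethasone and 0.5 mM isobutylmethylxanthine in medium with 10% serum from day 0 on, and cells of day 0 were confluent cells of the same construct in medium with 10% serum. The series asks, by its title, about FHL2 and NFAT5, the transcription factor of the tonicity response, in early adipogenesis. The labels call the genotype of the FHL2-GFP cells an overexpression and name neither the promoter nor the species of the construct, nor do they say whether the 3 libraries of a group came from separate cultures. There was no group kept for 2 days without the hormones, so time, hormones and any batch shared by the libraries of a day cannot be told apart.

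Carriers of this kind work in a few ways. Exchangers swap an amino acid inside the cell for another outside, sodium-coupled carriers pump amino acids in along the sodium gradient, and facilitators let them flow down their own gradient. Several exchangers are light chains that reach the membrane bound to a common heavy chain, the product of Slc3a2. Amino acids brought in this way feed protein synthesis and the mTORC1 kinase, and the transcription factor ATF4 raises many carrier genes when amino acids run short.

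A library held between 10047708 and 21872139 counts. Fhl2, the gene named by the construct, was at 18.7, 9.91 and 22.6 CPM (counts scaled to library size, after TMM scaling) in the day 2 libraries labelled FHL2, against 13.8, 14.2 and 20.98 CPM in the day 2 control libraries. At day 0 it was at 67.3, 58.7 and 61.9 CPM in the libraries labelled FHL2, against 58.8, 60.9 and 63.6 CPM in the control libraries. The log2 fold change was 0.07 (adjusted p = 0.914 by edgeR) at day 2 and 0.04 (adjusted p = 1) at day 0. The groups overlapped on both days, so the mouse Fhl2 counts do not set the libraries labelled FHL2 apart from the controls, and every difference between the labels below stands with that limit. All 9 preadipocyte and fibroblast markers had counts in every group. Adipoq, Plin1 and Cidec, markers of mature fat cells, had no count at day 0, and the 7 adipocyte markers summed to 121 to 147 CPM in libraries labelled FHL2 and 171 to 223 CPM in control libraries at day 2. At day 2 between 12689 and 16131 genes had a count, against 17977 to 18811 at day 0. The 3 day 2 libraries with the fewest genes were replicates 1 and 2 labelled FHL2 and control replicate 3. Some of the results that change without them, not all, are given both ways.

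Promoter sequence was available for 7 of the 10 carriers, as 12 windows of 300 bases from 250 before to 50 after an annotated start (RefSeq, GRCm38.p6). Searched on both strands, TGATGNAA, the letters of the element that C/EBP and ATF factors such as ATF4 bind, stood in 2 of the 12 windows, of Slc7a11 and Slc1a4. These letters stand in 3.97% of all 32851 such windows in the table. The series title names NFAT5, so TGGAAA, the core of its element, was searched too. It stood in 4 of the 12 windows, all of Slc43a2 or Slc38a4, and in 21.4% of all windows. Some of the stretches are printed, from 5′ to 3′ on the strand of the gene, with the matches in capitals. Further TGGAAA stretches of Slc43a2 and Slc38a4, and those of the antioxidant response element named below, are not printed.
Slc7a11, bases -86 to -20, chr3:50443633-50443699, minus strand: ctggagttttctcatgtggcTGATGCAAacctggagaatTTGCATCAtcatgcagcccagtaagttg
Slc1a4, bases -24 to 24, chr11:20332690-20332737, minus strand: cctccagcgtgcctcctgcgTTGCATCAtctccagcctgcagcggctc
Slc43a2, bases -32 to 14, chr11:75531662-75531707, plus strand: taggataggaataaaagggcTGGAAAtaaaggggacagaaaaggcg
Slc38a4, bases -31 to 21, chr15:97055936-97055987, minus strand: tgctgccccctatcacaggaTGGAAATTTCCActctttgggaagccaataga
Slc7a11 holds the C/EBP-ATF letters in both orientations, Slc1a4 holds them across its start, and in Slc38a4 the NFAT5 letters of both strands adjoin. The antioxidant response element TGACNNNGC stood in 3 of the 12 windows, of Slc7a1 and Slc7a6, and in 12.4% of all windows. The Slc7a6 windows overlap and hold the same site. TGACGTCA, the cAMP response element, stood in 1.79% of all windows and in none of the 12, and the palindromic glucocorticoid response element in 0.475% and in none of the 12. A match describes letters only and shows neither binding nor use of the site.

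With induction the carriers moved apart. In the libraries labelled FHL2, 4 of the 10 were called higher at day 2 than at day 0, beside 25.8% of all genes tested, and 3 were called lower, beside 30.2%. In the control libraries 4 were called higher, beside 26.3% of all genes, and 4 lower, beside 30.8%. Slc1a5, Slc3a2, Slc7a6 and Slc43a2 rose in both, and Slc7a1, Slc7a11 and Slc38a4 fell in both. Slc38a1 fell in control libraries, while Slc1a4 and Slc7a5 were called in neither. Calls are at an adjusted p under 0.05 from edgeR's quasi-likelihood test with Benjamini-Hochberg adjustment over all genes tested, and a p speaks for the spread among libraries alone. The median log2 fold change of the 10 carriers was -0.04 in libraries labelled FHL2 and 0.03 in control libraries, against -0.11 and -0.14 over all genes tested. In bulk RNA, fewer cells that use a gene and less of its RNA per cell cannot be told apart.

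**Figure D1:**
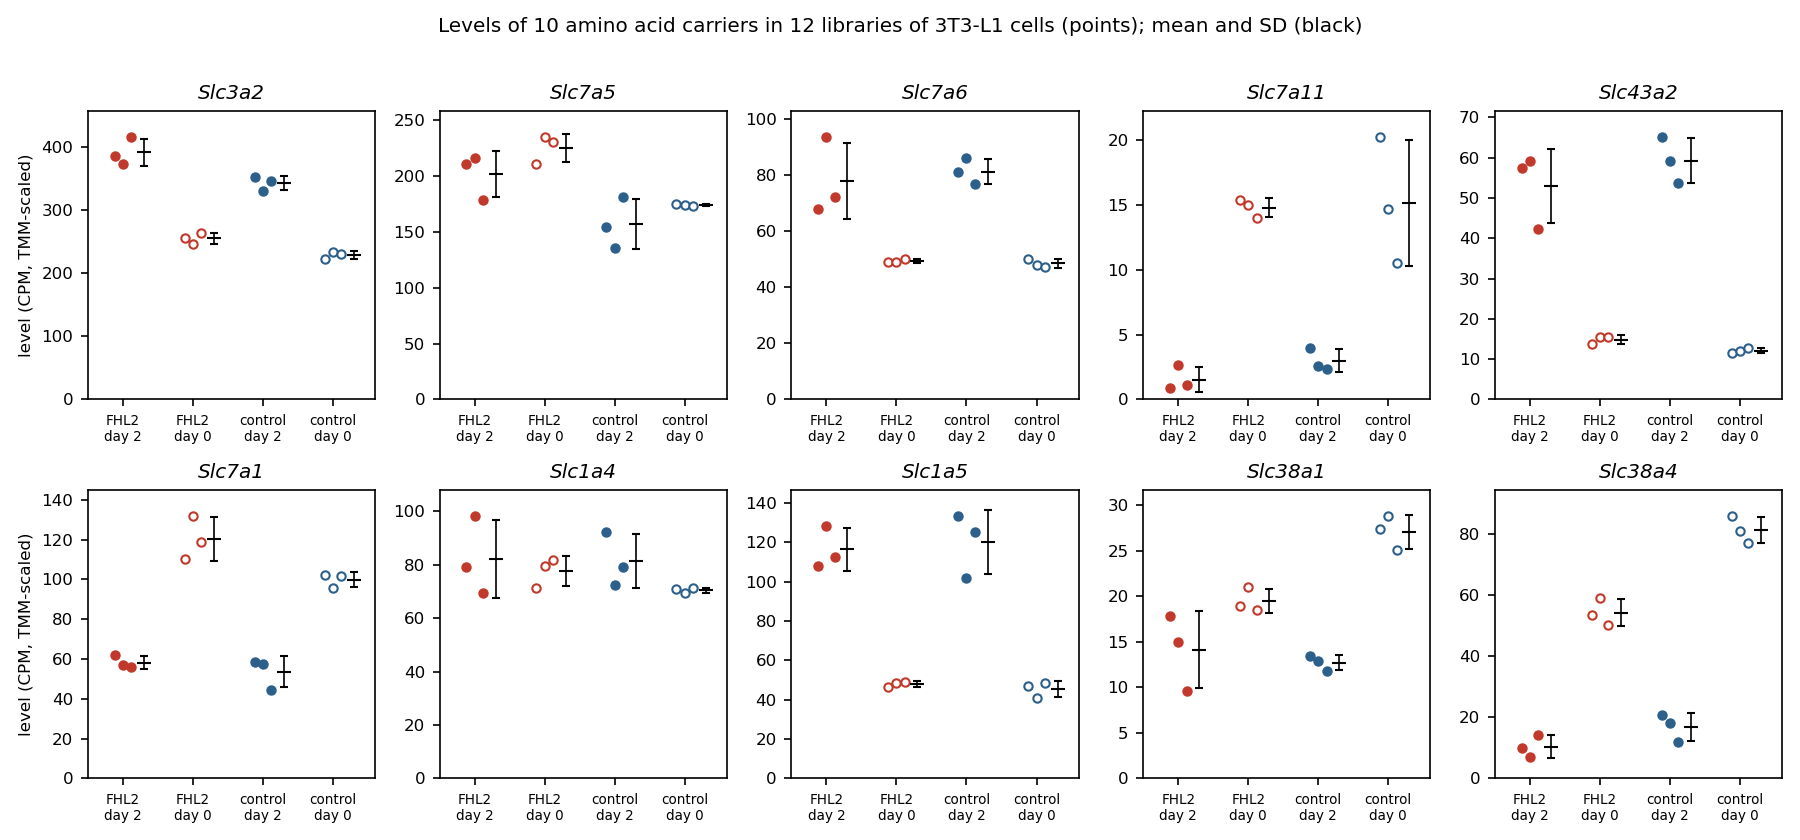
Level of each carrier in all 12 libraries, in CPM on an axis that starts at 0, with the libraries labelled FHL2 in red, the control libraries in blue, day 2 as filled and day 0 as open points, and the mean and SD of the 3 libraries in black. Slc1a5 and Slc43a2 stand clearly higher at day 2 in either label and Slc7a11 and Slc38a4 clearly lower, while the days overlap for Slc7a5.

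Per length of exon, Slc3a2 RNA was the most abundant of the 10 in all 4 groups and Slc7a5 RNA came next. At day 2 Slc3a2 averaged 111 ± 6.15 CPM per kb and Slc7a5 54.5 ± 5.59 CPM per kb in libraries labelled FHL2, and 97.1 ± 3.06 and 42.4 ± 6.14 CPM per kb in control libraries (SD, n = 3 each). Slc1a5 (27.9 ± 2.58 CPM per kb labelled FHL2, 28.8 ± 3.90 control) and Slc1a4 (20.9 ± 3.73 labelled FHL2, 20.7 ± 2.57 control) followed at day 2. The libraries of Slc1a4 and Slc7a6 overlapped in both labels at day 2, so their order is not resolved. At day 0 Slc38a4 stood next below Slc1a4 with 12.7 ± 1.05 CPM per kb in libraries labelled FHL2, and next below Slc7a5 with 19.1 ± 1.03 in control libraries, where it overlapped Slc1a4. Slc7a11 was last in every group, at 0.11 ± 0.0677 CPM per kb in libraries labelled FHL2 and 0.214 ± 0.0639 in control libraries at day 2. At day 0 it was at 1.06 ± 0.0528 in libraries labelled FHL2, where it overlapped Slc38a1, and 1.09 ± 0.349 in control libraries, where it overlapped Slc43a2.

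Slc3a2 (ENSMUSG00000010095) encodes the heavy chain CD98hc, which escorts the light chains to the cell surface. It had 386, 372 and 415 CPM at day 2 against 255, 246 and 264 CPM at day 0 in libraries labelled FHL2. In control libraries it had 351, 331 and 346 CPM at day 2 against 222, 234 and 231 CPM at day 0. Every day 2 library lay above every day 0 library. The log2 fold change was 0.62 (SE 0.075, adjusted p = 8.54e-06) in libraries labelled FHL2 and 0.58 (SE 0.076, adjusted p = 1.43e-05) in control libraries, by edgeR's quasi-likelihood test.

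Slc7a5 (ENSMUSG00000040010) encodes LAT1, the light chain that exchanges leucine and other large neutral amino acids. It had 211, 216 and 178 CPM at day 2 against 210, 235 and 230 CPM at day 0 in libraries labelled FHL2. In control libraries it had 154, 136 and 181 CPM at day 2 against 175, 174 and 173 CPM at day 0. The days overlapped in either label, and the log2 fold changes of -0.16 (SE 0.11, adjusted p = 0.243) in libraries labelled FHL2 and -0.15 (SE 0.11, adjusted p = 0.266) in control libraries were not called. Without the 3 libraries with the fewest genes the value in libraries labelled FHL2 was -0.32 (adjusted p = 0.0335, with 1 library left at day 2).

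Slc7a6 (ENSMUSG00000031904) encodes y+LAT2, the light chain that exchanges arginine and other cationic amino acids for neutral ones. It had 68.0, 93.4 and 72.3 CPM at day 2 against 48.9, 49.0 and 50.2 CPM at day 0 in libraries labelled FHL2. Control libraries had 80.9, 85.9 and 76.9 CPM at day 2 against 50.2, 48.0 and 47.2 CPM at day 0. The days did not overlap, day 0 libraries lay close together, and the rise was 0.66 (SE 0.13, adjusted p = 0.000483) in libraries labelled FHL2 and 0.74 (SE 0.13, adjusted p = 0.000165) in control libraries on the log2 scale.

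Slc7a11 (ENSMUSG00000027737) encodes xCT, the light chain that brings in cystine for glutamate and so supplies cysteine for glutathione. It had 0.90, 2.62 and 1.09 CPM at day 2, from 13, 37 and 18 counts, against 15.4, 15.03 and 13.99 CPM at day 0 in libraries labelled FHL2. In control libraries it had 4.01, 2.57 and 2.38 CPM at day 2, from 57, 35 and 22 counts, against 20.2, 14.7 and 10.5 CPM at day 0. The days were far apart in either label, and the control libraries of day 0 spread over a wide range. It fell by 3.27 (SE 0.43, adjusted p = 1.79e-05) in libraries labelled FHL2 and by 2.34 (SE 0.41, adjusted p = 0.000227) in control libraries on the log2 scale.

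The heavy chain and its light chains thus changed by unequal amounts. The RNA of the 6 light chains known to pair with the Slc3a2 product (Slc7a5, Slc7a6, Slc7a7, Slc7a8, Slc7a10 and Slc7a11) summed to 71.8 ± 7.27 CPM per kb at day 2 against 72.8 ± 3.62 at day 0 in libraries labelled FHL2. The sum was 60.6 ± 4.97 CPM per kb at day 2 against 58.7 ± 1.01 at day 0 in control libraries (SD, n = 3 each). Light chain RNA per heavy chain RNA ranged from 0.548 to 0.749 at day 2 against 0.950 to 1.08 at day 0 in libraries labelled FHL2, and from 0.597 to 0.671 at day 2 against 0.883 to 0.950 at day 0 in control libraries. Within the light chains, the share of Slc7a5 was 75.9 ± 2.90% at day 2 against 83.4 ± 0.663% at day 0 in libraries labelled FHL2, and 69.7 ± 4.36% against 79.9 ± 0.828% in control libraries. The share of Slc7a6 was 23.7 ± 2.69% at day 2 against 14.9 ± 0.684% at day 0 in libraries labelled FHL2, and 29.6 ± 4.02% against 18.1 ± 0.268% in control libraries. These ratios have no test of their own, and ranges of the days did not overlap for the light to heavy ratio.

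Slc43a2 (ENSMUSG00000038178) encodes LAT4, a facilitator of branched-chain amino acids and phenylalanine that needs no heavy chain. It had 57.4, 59.1 and 42.4 CPM at day 2 against 13.7, 15.5 and 15.4 CPM at day 0 in libraries labelled FHL2, and 65.0, 59.2 and 53.6 CPM at day 2 against 11.4, 12.1 and 12.8 CPM at day 0 in control libraries. All day 2 libraries were well above all day 0 libraries. The rise was 3.56-fold (log2 fold change 1.83, SE 0.16, adjusted p = 4.87e-07) in libraries labelled FHL2 and 4.90-fold (log2 fold change 2.29, SE 0.17, adjusted p = 6.93e-08) in control libraries. Its exons overlap those of the antisense gene Gm45606 by 922 bases in the GENCODE M21 annotation. The sources used here do not give the strand setting of the counting, so reads of the 2 genes may not have been told apart.

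Slc7a1 (ENSMUSG00000041313) encodes CAT1, a uniporter of arginine, lysine and ornithine. It had 61.8, 56.8 and 56.0 CPM at day 2 against 110, 132 and 119 CPM at day 0 in libraries labelled FHL2. Control libraries had 58.7, 57.7 and 44.7 CPM at day 2 against 102, 95.7 and 102 CPM at day 0. No day 2 library reached a day 0 library. It fell by 1.05 (SE 0.12, adjusted p = 5.13e-06) in libraries labelled FHL2 and by 0.89 (SE 0.12, adjusted p = 2.19e-05) in control libraries on the log2 scale. Slc7a6, whose product also carries cationic amino acids, rose.

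Slc1a5 (ENSMUSG00000001918) encodes ASCT2, a sodium-dependent exchanger of glutamine and other neutral amino acids. It had 108, 129 and 112 CPM at day 2 against 46.3, 48.6 and 49.1 CPM at day 0 in libraries labelled FHL2, and 133, 102 and 125 CPM at day 2 against 46.9, 40.6 and 48.3 CPM at day 0 in control libraries. The days were separate in either label. The level at day 2 was 2.42-fold that of day 0 (log2 fold change 1.28, SE 0.12, adjusted p = 1.04e-06) in libraries labelled FHL2 and 2.65-fold (log2 fold change 1.41, SE 0.13, adjusted p = 4.30e-07) in control libraries.

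Slc1a4 (ENSMUSG00000020142) encodes ASCT1, the related exchanger of alanine, serine, cysteine and threonine. It had 79.3, 98.1 and 69.3 CPM at day 2 against 71.1, 79.6 and 81.9 CPM at day 0 in libraries labelled FHL2, and 92.3, 72.4 and 79.3 CPM at day 2 against 70.7, 69.4 and 71.1 CPM at day 0 in control libraries. The days overlapped in libraries labelled FHL2 and lay next to each other in control libraries. Log2 fold changes were 0.08 (SE 0.14, adjusted p = 0.624) in libraries labelled FHL2 and 0.21 (SE 0.14, adjusted p = 0.208) in control libraries, neither of them called.

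Slc38a1 and Slc38a4 encode SNAT1 and SNAT4, sodium-coupled carriers of neutral amino acids. Slc38a4 (ENSMUSG00000022464), an imprinted gene in the mouse, had 9.98, 6.87 and 14.3 CPM at day 2 against 53.7, 59.0 and 50.1 CPM at day 0 in libraries labelled FHL2, and 20.9, 18.0 and 11.9 CPM at day 2 against 85.9, 81.2 and 77.1 CPM at day 0 in control libraries. Every day 2 library was far below every day 0 library. Slc38a4 fell by 2.38 (SE 0.24, adjusted p = 1.52e-06) in libraries labelled FHL2 and by 2.26 (SE 0.24, adjusted p = 2.19e-06) in control libraries on the log2 scale. Slc38a1 (ENSMUSG00000023169), a carrier of glutamine among others, had 17.9, 15.01 and 9.56 CPM at day 2 against 18.9, 21.03 and 18.5 CPM at day 0 in libraries labelled FHL2. Control libraries had 13.4, 12.9 and 11.8 CPM at day 2 against 27.4, 28.8 and 25.1 CPM at day 0. The days did not overlap in either label, yet in libraries labelled FHL2 the highest day 2 library came close to day 0. Slc38a1 fell by 1.09 (SE 0.23, adjusted p = 0.000849) in control libraries, and its value of -0.46 (SE 0.22, adjusted p = 0.0921) in libraries labelled FHL2 was not called. Leaving out 1 library at a time gave Slc38a1 values of -0.65 to -0.23 in libraries labelled FHL2 (adjusted p of 0.0272 to 0.340 by edgeR). The value was -0.65 (adjusted p = 0.0272) without day 2 replicate 1 labelled FHL2 alone. Without the 3 libraries with the fewest genes the value was -1.01. That fit keeps 1 day 2 library labelled FHL2, the one with the lowest Slc38a1 level (9.56 CPM).

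Across the transcriptome, GC-rich genes tended to rise with induction and GC-poor genes to fall. Over the 10443 genes that averaged 5 CPM or more, Spearman's rho across genes between GC content and log2 fold change was 0.670 in libraries labelled FHL2 and 0.689 in control libraries, and genes are not independent replicates. The carriers span this range: transcripts of Slc7a11 (40.7% GC) and Slc38a4 (43.4%) lie below the median of tested genes (49.4%), and those of Slc1a5 (56.7%) and Slc7a5 (56.3%) above it. A fit with a smooth offset for GC content in each library was therefore set beside the counts as they stand. In that fit 3 of the 10 carriers were called higher at day 2 in libraries labelled FHL2, beside 21.2% of all genes, and 4 lower, beside 17.8%. In control libraries 3 were called higher, beside 22.1%, and 4 lower, beside 17.2%. The median over all genes tested was 0.0069 in libraries labelled FHL2 and 0.0085 in control libraries in that fit.

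The corrected fit left the direction of the strong changes in place and moved others. Slc43a2 rose by 1.38 (adjusted p = 1.03e-05) in libraries labelled FHL2 and 1.82 (adjusted p = 8.37e-07) in control libraries, and Slc7a6 by 0.92 (adjusted p = 4.68e-05) in libraries labelled FHL2 and 1.04 (adjusted p = 1.61e-05) in control libraries. Slc1a5 rose by 0.60 (adjusted p = 0.000730) in libraries labelled FHL2 and 0.72 (adjusted p = 0.000181) in control libraries. The rise of Slc3a2 was no longer called, at 0.16 (adjusted p = 0.109) in libraries labelled FHL2 and 0.12 (adjusted p = 0.255) in control libraries. Slc7a5 was called lower, at -0.81 (adjusted p = 4.98e-05) in libraries labelled FHL2 and -0.82 (adjusted p = 4.69e-05) in control libraries.

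Of the carriers that fell, Slc7a1 stood at -1.28 (adjusted p = 8.44e-07) in libraries labelled FHL2 and -1.14 (adjusted p = 2.41e-06) in control libraries in the corrected fit. Slc38a4 stood at -1.17 (adjusted p = 0.000321) in libraries labelled FHL2 and -0.95 (adjusted p = 0.00150) in control libraries, nearer to 0 than the values as counted by over 1 on the log2 scale. Slc7a11 kept its call in libraries labelled FHL2 (-1.58, adjusted p = 0.00567) and lost it in control libraries (-0.47, adjusted p = 0.356). Slc38a1 stood at -0.29 (adjusted p = 0.338) in libraries labelled FHL2 and -0.91 (adjusted p = 0.00648) in control libraries. With offsets for GC content and exon length it stood at 0.098 (adjusted p = 0.722 by edgeR) in libraries labelled FHL2. In control libraries it then stood at -0.59 (adjusted p = 0.0237). Whether the GC relation arises in the cells or in the libraries was not tested.

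**Figure D2:**
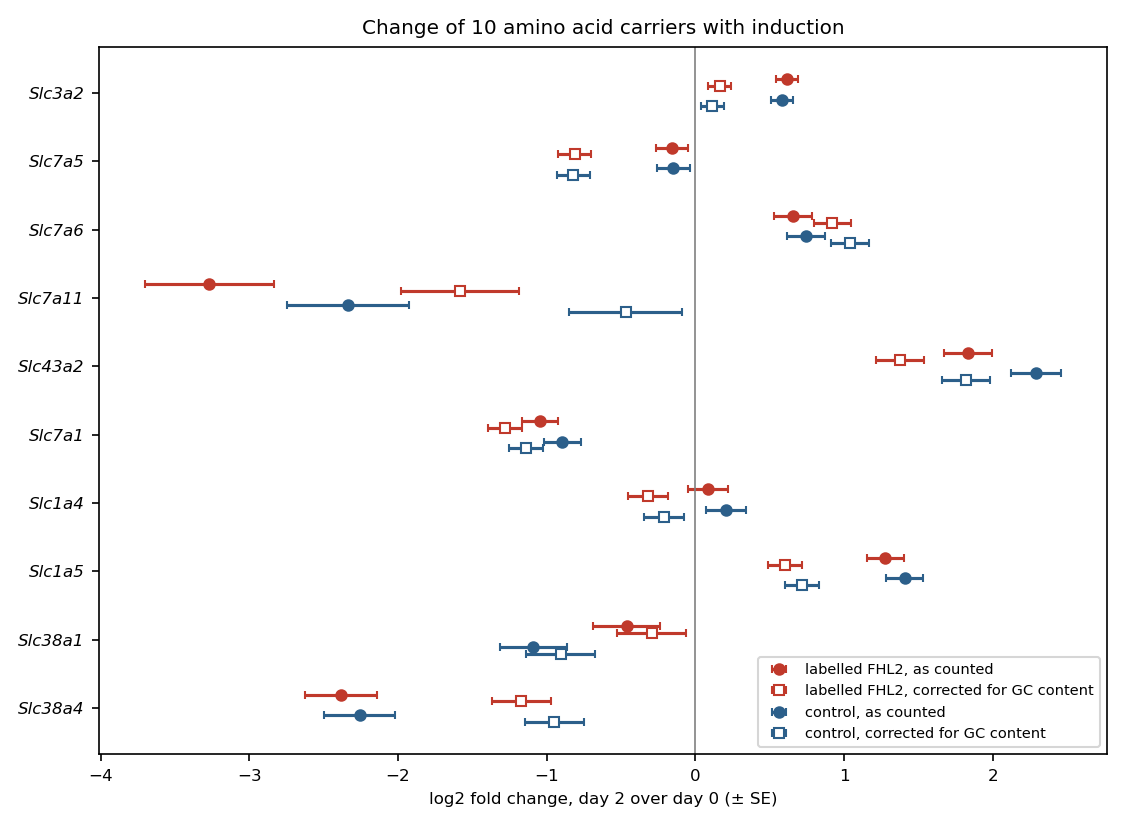
Log2 fold change of each carrier, day 2 over day 0, with its standard error, for libraries labelled FHL2 (red) and control libraries (blue), as counted (filled circles) and with the offset for GC content (open squares). The offset moves Slc3a2 to 0.16 and 0.12 and Slc7a5 to -0.81 and -0.82, and leaves Slc43a2, Slc7a6 and Slc1a5 above 0 and Slc7a1 and Slc38a4 below 0.

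**Figure D3:**
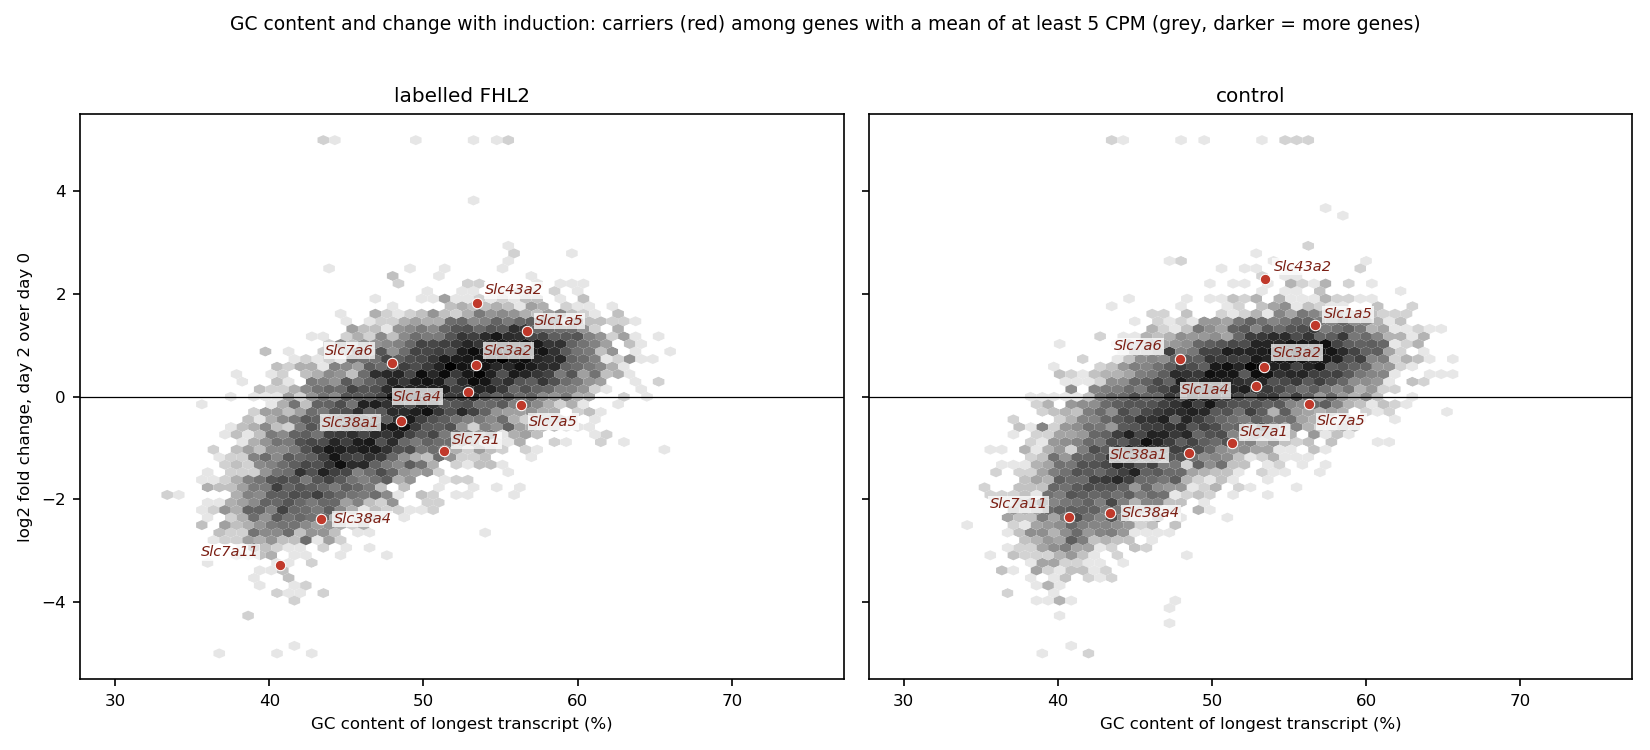
GC content of the longest transcript (percent) against log2 fold change, day 2 over day 0, for the 10 carriers (red points) over the density of the 10443 genes that averaged 5 CPM or more (grey, darker for more genes on a log scale, values beyond 5 drawn at 5), with libraries labelled FHL2 on the left and control libraries on the right. Slc43a2 and Slc7a6 lie above most genes of like GC content and Slc7a5 and Slc7a1 below them, and the carriers with the lowest GC content, Slc7a11 and Slc38a4, have the lowest values.

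Fewer carriers were called between the labels than between days, and the mouse Fhl2 counts did not separate those labels. At day 2 none of the 10 was called in libraries labelled FHL2 against control libraries by edgeR, beside 2.07% of all genes, and at day 0 none was called, beside 0.0485%. At an unadjusted p under 0.05 there were 4 at day 2, beside 18.1% of all genes, and 4 at day 0, beside 4.16%, and neither DESeq2 nor limma-voom called any. The change with induction was called different between the labels for none of them, beside 0.00693% of all genes, with 0 at an unadjusted p under 0.05, beside 6.90% of all genes, and 0 by DESeq2 or limma-voom. Averaged over both days, 1 carrier was called, beside 1.85% of all genes, and it was Slc7a5. There were 4 at an unadjusted p under 0.05, beside 15.3% of all genes. DESeq2 called 3, beside 5.39%, and limma-voom 2, beside 2.49%.

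Slc7a5 was higher in the libraries labelled FHL2 by 0.37 on the log2 scale (1.29-fold, SE 0.078, adjusted p = 0.0283 by edgeR's quasi-likelihood test) over both days. At day 2 it had 211, 216 and 178 CPM in libraries labelled FHL2 against 154, 136 and 181 CPM in control libraries, where 1 control library lay within the range of the libraries labelled FHL2. At day 0 it had 210, 235 and 230 CPM in libraries labelled FHL2 against 175, 174 and 173 CPM in control libraries, without overlap. The difference was 0.36 (SE 0.11, adjusted p = 0.105) at day 2 and 0.37 (SE 0.11, adjusted p = 0.535) at day 0. In a fit of the day 0 libraries alone it was 0.40 (adjusted p = 0.0192), and in a fit of the day 2 libraries alone 0.36 (adjusted p = 0.473 by edgeR). The call over both days was lost, with values of 0.35 to 0.39 and adjusted p of 0.0546 to 0.0953, when any day 0 library of either label or day 2 replicate 2 labelled FHL2 was left out. It was also lost in the fit with a replicate block and GC offset (0.37, adjusted p = 0.0513).

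Slc38a4 went the other way, with 9.98, 6.87 and 14.3 CPM in libraries labelled FHL2 against 20.9, 18.0 and 11.9 CPM in control libraries at day 2, and 53.7, 59.0 and 50.1 CPM in libraries labelled FHL2 against 85.9, 81.2 and 77.1 CPM in control libraries at day 0. The labels did not overlap at day 0 and overlapped at day 2. The difference over both days was -0.65 (SE 0.16, adjusted p = 0.0628 by edgeR's quasi-likelihood test), which was not called. The test was passed under 9 of 24 alternatives and not under the other 15, with values of -0.80 to -0.52. Those passed were DESeq2 (adjusted p = 0.00491), limma-voom (adjusted p = 0.0347), no filter on low counts (adjusted p = 0.000465), a mean of 5 CPM (adjusted p = 0.0464), the GC offset (adjusted p = 0.0313) and GC and length offsets (adjusted p = 0.0215). Without the 3 libraries with the fewest genes it passed at -0.52, with 1 library labelled FHL2 left at day 2. In the day 0 libraries alone the day 0 difference passed at -0.56 (adjusted p = 0.00825). In the day 2 libraries alone the day 2 difference of -0.71 did not pass (adjusted p = 0.616 by edgeR). The difference over both days also passed at -0.80 (adjusted p = 0.0219) without day 2 replicate 3 labelled FHL2 and at -0.75 (adjusted p = 0.0229) without day 2 control replicate 3.

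Among the others, Slc3a2 had a difference of 0.19 (SE 0.075, adjusted p = 0.198) at day 2 and of 0.15 (SE 0.075, adjusted p = 1) at day 0 in libraries labelled FHL2 against control libraries. Its libraries did not overlap on either day. Slc7a11 was not called at day 2 (-0.97, SE 0.43, adjusted p = 0.250). Without the 3 libraries with the fewest genes it stood at -1.62, with 1 library labelled FHL2 left at day 2. At day 2, 1 of the 10 carriers had no overlap and lay higher in libraries labelled FHL2 (Slc3a2), beside 7.28% of all genes, and none lay lower, beside 7.41%. At day 0, 4 had no overlap and lay higher (Slc3a2, Slc7a1, Slc7a5 and Slc43a2), beside 10.5% of all genes, and 2 lay lower (Slc38a1 and Slc38a4), beside 11.1%.

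Slc38a1 and Slc43a2 came closest, by adjusted p, to a different change with induction in the libraries labelled FHL2 and in control libraries. The difference of the changes was 0.63 (SE 0.32, adjusted p = 0.742) for Slc38a1 and -0.46 (SE 0.23, adjusted p = 0.728) for Slc43a2. Without the 3 libraries with the fewest genes these values were -0.026 for Slc38a1 and -0.89 for Slc43a2, with 1 library labelled FHL2 left at day 2.

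**Figure D4:**
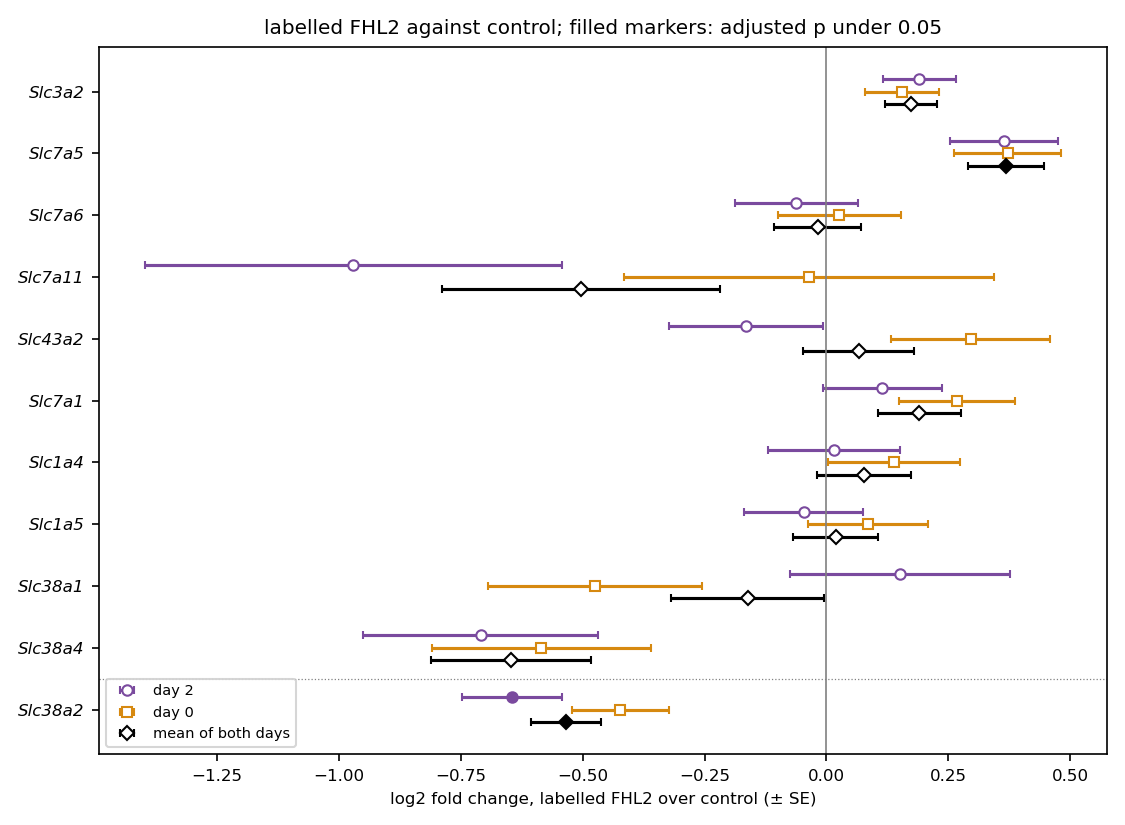
Log2 fold change of libraries labelled FHL2 over control libraries, with its standard error, at day 2 (circles), at day 0 (squares) and as the mean of both days (diamonds), filled where the adjusted p is under 0.05. Of the 10 carriers the mean of both days of Slc7a5 (0.37) is filled, and below the dotted line Slc38a2, a related carrier outside the 10, is filled at day 2 (-0.64) and for the mean of both days (-0.53).

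The other carriers of the plasma membrane were taken as a list of 25 genes, of which 12 had enough counts to be tested. For this list and those below, counts that rose or fell are of called genes. Of all genes tested, 25.8% were called higher and 30.2% lower at day 2 in libraries labelled FHL2, and 26.3% and 30.8% in control libraries. With the GC offset the shares were 21.2% and 17.8% in libraries labelled FHL2, and 22.1% and 17.2% in control libraries. In libraries labelled FHL2 1 of the 12 rose and 6 fell at day 2 against day 0, and in control libraries 1 rose and 4 fell. Their median log2 fold change was -0.60 in libraries labelled FHL2 and -0.86 in control libraries. Under the GC offset 1 rose and 4 fell in libraries labelled FHL2 (median -0.43), and 2 rose and 1 fell in control libraries (median -0.10). Slc43a3, a relative of Slc43a2 that is known as a carrier of purine bases and fatty acids, rose by 1.08 (adjusted p = 0.000129) in libraries labelled FHL2 and 1.15 (adjusted p = 7.22e-05) in control libraries. Slc36a4, which encodes a proline and tryptophan carrier, fell by 1.40 (adjusted p = 2.13e-05) in libraries labelled FHL2, and Slc38a6 fell by 1.11 (adjusted p = 0.00178) in control libraries. With the GC offset Slc36a4 stood at -0.18 (adjusted p = 0.492) and Slc38a6 at -0.13 (adjusted p = 0.697) in the same libraries. Each was named in 1 label by the size of its change there. The change with induction was called different between the labels for none of the 12.

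Slc38a2 encodes SNAT2, the carrier of small neutral amino acids that cells raise on amino acid shortage and in hypertonic medium. It had 98.2, 77.0 and 79.5 CPM in libraries labelled FHL2 against 138, 123 and 137 CPM in control libraries at day 2, and 222, 218 and 214 CPM in libraries labelled FHL2 against 309, 292 and 276 CPM in control libraries at day 0. The labels did not overlap on either day. It was lower in libraries labelled FHL2 by a log2 fold change of -0.64 (SE 0.10, adjusted p = 0.00653) at day 2 and -0.53 (SE 0.072, adjusted p = 0.00169) over both days, and at day 0 the value was -0.42 (SE 0.10, adjusted p = 0.224). The call over both days held under all 24 alternatives run for it, and the call at day 2 under 24 of 25. The exception was the fit of the day 2 libraries alone (adjusted p = 0.115). Between days it fell by 1.36 (adjusted p = 1.08e-07) in libraries labelled FHL2 and by 1.14 (adjusted p = 4.56e-07) in control libraries; with the GC offset these values were -0.41 (adjusted p = 0.0152) in libraries labelled FHL2 and -0.08 (adjusted p = 0.623) in control libraries. Slc6a9, which encodes the glycine carrier GLYT1, was higher in libraries labelled FHL2 at day 2 (0.71, adjusted p = 0.0474), a call that held under 7 of 25 alternatives.

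Of the 19 tested carriers of lysosomes and mitochondria, 7 rose and 4 fell in libraries labelled FHL2 and 7 rose and 3 fell in control libraries at day 2. Their median log2 fold change was 0.23 in libraries labelled FHL2 and 0.06 in control libraries. Once offset for GC content, 4 rose and 4 fell in libraries labelled FHL2 (median 0.02), and 4 rose and 3 fell in control libraries (median 0.10). Slc25a39, the mitochondrial importer of glutathione, rose by 1.15 (adjusted p = 8.39e-08) in libraries labelled FHL2 and 1.43 (adjusted p = 1.16e-08) in control libraries, and Slc25a29, a mitochondrial carrier of basic amino acids, by 2.00 (adjusted p = 0.000162) in libraries labelled FHL2 and 1.56 (adjusted p = 0.00114) in control libraries. Slc25a39 kept its call over all alternatives, offsets included, with values down to 0.32 in libraries labelled FHL2 and 0.59 in control libraries. After the GC offset the call of Slc25a29 was lost in control libraries (0.79, adjusted p = 0.0694). Slc25a40, a relative of Slc25a39, fell by 1.70 (adjusted p = 0.00339) in libraries labelled FHL2 and 2.06 (adjusted p = 0.000949) in control libraries, and with the GC offset stood at 0.13 (adjusted p = 0.784) in libraries labelled FHL2 and -0.064 (adjusted p = 0.903) in control libraries. None of the 19 was called between the labels on either day by edgeR.

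Among enzymes that use what the carriers bring in, the largest change named by the rule was that of glutamine synthetase. Its gene, Glul, had 321, 307 and 311 CPM at day 2 against 29.2, 26.3 and 26.6 CPM at day 0 in libraries labelled FHL2, and 356, 395 and 323 CPM at day 2 against 24.4, 28.2 and 28.5 CPM at day 0 in control libraries. That is a rise of 11.4-fold (adjusted p = 2.91e-11) in libraries labelled FHL2 and 13.3-fold (adjusted p = 1.56e-11) in control libraries. With the GC offset the log2 fold change was 3.56 in libraries labelled FHL2 and 3.79 in control libraries. Of the 19 tested genes of serine, glycine, proline and one-carbon synthesis, 10 rose and 2 fell in libraries labelled FHL2, and 11 rose and 2 fell in control libraries, with a median of 0.31 in libraries labelled FHL2 and 0.43 in control libraries. Under the GC offset the counts were 6 and 4 in libraries labelled FHL2, and 6 and 2 in control libraries. Mthfd1l, the mitochondrial formate-producing enzyme, had 49.5, 42.7 and 47.3 CPM in libraries labelled FHL2 against 78.2, 97.9 and 76.7 CPM in control libraries at day 2. The log2 fold change was -0.86 with an SE of 0.13 (adjusted p = 0.00521), and the call was lost in a fit of the day 2 libraries alone (adjusted p = 0.066). Phgdh, of the same list, was called higher in libraries labelled FHL2 at day 2 (0.55, adjusted p = 0.0419 by edgeR). That call held under 12 of 25 alternatives.

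Atf4, which encodes the factor that raises Slc7a11, Slc7a5, Slc3a2 and Slc7a1 on amino acid shortage, had 283, 305 and 343 CPM at day 2 against 293, 272 and 289 CPM at day 0 in libraries labelled FHL2, and 297, 285 and 305 CPM at day 2 against 292, 298 and 295 CPM at day 0 in control libraries. The log2 fold change was 0.13 (adjusted p = 0.214) in libraries labelled FHL2 and 0.0023 (adjusted p = 0.984) in control libraries, and with the GC offset -0.49 (adjusted p = 0.000342) in libraries labelled FHL2 and -0.63 (adjusted p = 4.10e-05) in control libraries. Of 21 genes of the amino acid response, Atf4 and its known targets included, 6 rose and 7 fell in libraries labelled FHL2 and 4 rose and 7 fell in control libraries at day 2, with a median of -0.03 in libraries labelled FHL2 and -0.26 in control libraries. Once offset for GC content, 5 rose and 9 fell in libraries labelled FHL2, and 6 rose and 9 fell in control libraries. Cebpb, a factor of early adipogenesis as well as a target of ATF4, rose by 2.13 (adjusted p = 1.16e-07) in libraries labelled FHL2 and 2.54 (adjusted p = 2.41e-08) in control libraries, and Ddit4, an inhibitor of mTORC1 that glucocorticoids also raise, by 1.69 (adjusted p = 5.84e-08) in libraries labelled FHL2 and 1.60 (adjusted p = 8.08e-08) in control libraries. These rises stayed called over all alternatives, offsets included. The lowest values of Cebpb were 1.34 in libraries labelled FHL2 and 1.61 in control libraries, and those of Ddit4 were 0.71 and 0.66. Eif2ak4, the kinase GCN2 that senses uncharged tRNA, fell by 1.15 (adjusted p = 0.000325) in libraries labelled FHL2. It was named in that label alone by the size of its change there. The change with induction was called different between the labels for none of the 21 genes. Between the labels at day 2 Ddit3 was called higher in libraries labelled FHL2 (0.53, adjusted p = 0.0415), a call that held under 9 of 25 alternatives. Over both days Ddit3 was called higher (0.41, adjusted p = 0.0267 by edgeR) and Ddit4 lower (-0.41, adjusted p = 0.0201) in libraries labelled FHL2. Those calls held under 15 of 24 alternatives for Ddit3 and 19 of 24 for Ddit4.

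For mTORC1 and its amino acid sensing, 13 of 24 tested genes rose and 6 fell in libraries labelled FHL2, and 10 rose and 8 fell in control libraries, with a median of 0.40 in libraries labelled FHL2 and 0.28 in control libraries. After the GC offset 5 rose and 6 fell in libraries labelled FHL2, and 4 rose and 7 fell in control libraries. Rheb, the GTPase that switches mTORC1 on, fell by 1.74 (adjusted p = 1.73e-06) in libraries labelled FHL2 and 1.70 (adjusted p = 2.13e-06) in control libraries, and stood at -0.79 (adjusted p = 0.00241) in libraries labelled FHL2 and -0.69 (adjusted p = 0.00682) in control libraries with the GC offset. Fnip1, a folliculin partner in the amino acid signal to mTORC1, fell by 2.92 (adjusted p = 1.71e-07) in libraries labelled FHL2 and 3.23 (adjusted p = 7.28e-08) in control libraries, and stood at -0.98 (adjusted p = 0.00339) in libraries labelled FHL2 and -1.02 (adjusted p = 0.00305) in control libraries with the GC offset. Sesn3, which encodes a sestrin, an inhibitor of mTORC1, fell by 1.27 (adjusted p = 2.67e-05) in libraries labelled FHL2 and 1.47 (adjusted p = 6.86e-06) in control libraries. With the GC offset Sesn3 stood at -0.38 (adjusted p = 0.121) in libraries labelled FHL2 and -0.49 (adjusted p = 0.0512) in control libraries. Of 20 cytosolic tRNA synthetases, which load amino acids onto tRNA, 8 rose and 9 fell in libraries labelled FHL2, and 9 rose and 8 fell in control libraries, with a median of -0.13 in libraries labelled FHL2 and -0.10 in control libraries. Under the GC offset 4 rose and 7 fell in libraries labelled FHL2, and 4 rose and 5 fell in control libraries. Aars1, alanyl-tRNA synthetase, was higher in libraries labelled FHL2 over both days (log2 fold change 0.23, adjusted p = 0.0328), a call that held under 12 of 24 alternatives.

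Of 9 genes of cystine use and glutathione synthesis, which lie downstream of the Slc7a11 product, 4 rose and 1 fell in libraries labelled FHL2, and 4 rose and 2 fell in control libraries, while Slc7a11 itself fell. Their median was 0.46 in libraries labelled FHL2 and 0.65 in control libraries. Once offset for GC content, 6 rose and 2 fell in libraries labelled FHL2, and 6 rose and 1 fell in control libraries. In that fit the fall of Slc7a11 was called in libraries labelled FHL2 (-1.58) and was not called in control libraries (-0.47). Gpx4, the glutathione peroxidase that repairs lipid peroxides, rose by 1.64 (adjusted p = 7.57e-09) in libraries labelled FHL2 and 1.45 (adjusted p = 2.02e-08) in control libraries, and Nqo1, a quinone reductase under NRF2, by 1.54 (adjusted p = 1.40e-06) in libraries labelled FHL2 and 1.69 (adjusted p = 6.45e-07) in control libraries. Over all alternatives, offsets included, both kept their calls. The lowest values of Gpx4 were 0.65 in libraries labelled FHL2 and 0.47 in control libraries, and those of Nqo1 were 1.45 and 1.60. Gclm, a subunit of the enzyme that begins glutathione synthesis, fell by 1.04 (adjusted p = 9.24e-05) in libraries labelled FHL2 and 1.14 (adjusted p = 4.16e-05) in control libraries, and with the GC offset it rose by 0.42 (adjusted p = 0.0492) in libraries labelled FHL2 and 0.45 (adjusted p = 0.0356) in control libraries. For the breakdown of branched-chain amino acids, substrates of the Slc7a5 and Slc43a2 carriers, 4 of 19 genes rose and 5 fell in libraries labelled FHL2, and 4 rose and 7 fell in control libraries, with a median of 0.03 in libraries labelled FHL2 and 0.02 in control libraries. After the GC offset 9 rose and 0 fell in libraries labelled FHL2, and 8 rose and 1 fell in control libraries. Of all genes in that fit, 21.2% were called higher and 17.8% lower in libraries labelled FHL2, and 22.1% and 17.2% in control libraries.

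**Figure D5:**
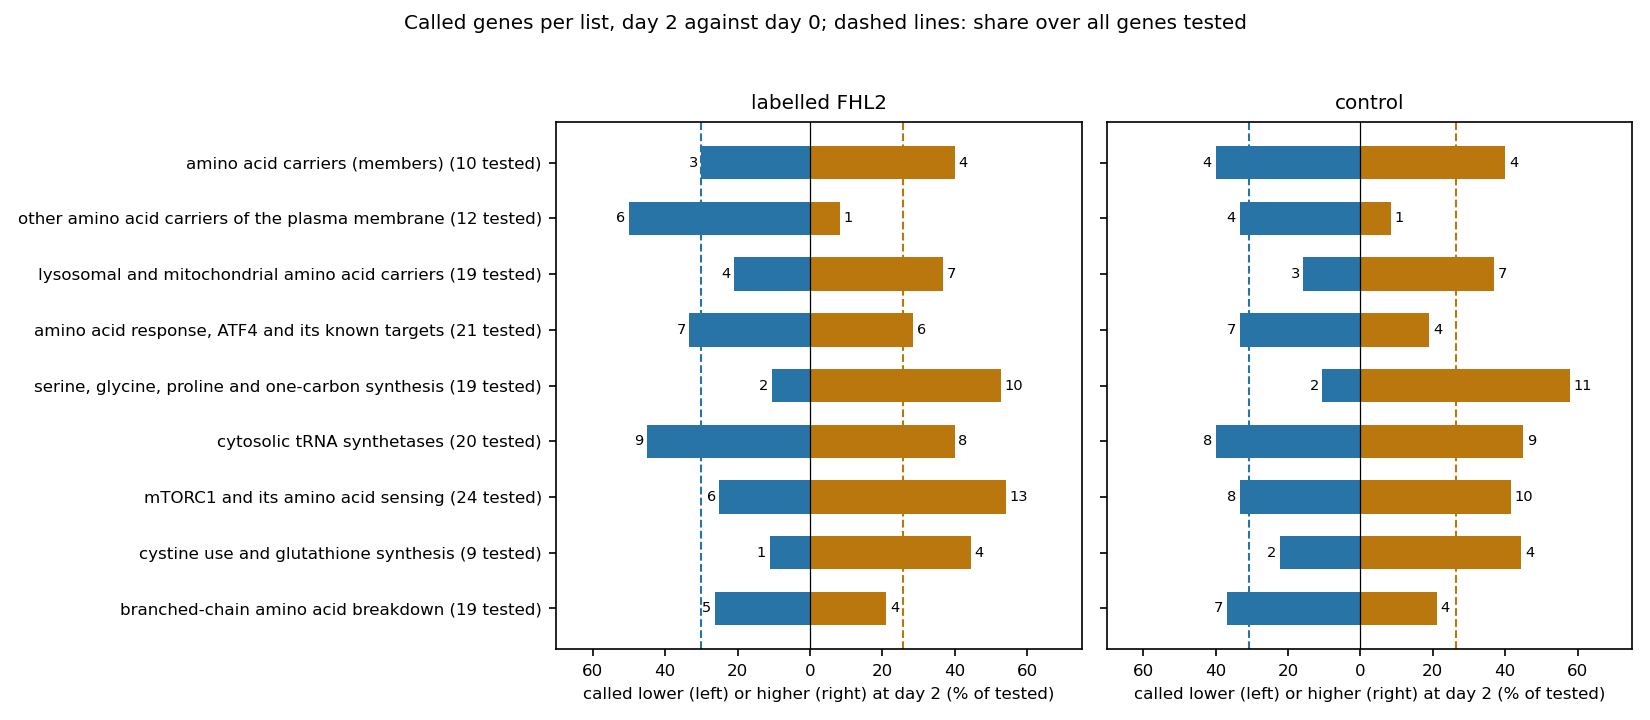
Share of the tested genes of each list called higher (right, brown) or lower (left, blue) at day 2 against day 0, in percent, with the number of genes at each bar's end, for libraries labelled FHL2 (left) and control libraries (right); dashed lines mark the shares over all genes tested. Of the 10 carriers 4 were called higher in either label, and the list of serine, glycine, proline and one-carbon synthesis has 10 and 11 called higher.

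The genes whose log2 CPM over the 12 libraries ran most like each carrier's are given as a description. The libraries form 4 groups that differ by day, so any genes that change with the day run alike over them. For Slc43a2 it was Lrp5 (Pearson's r = 0.996), for Slc1a5 Agpat1 (r = 0.995), for Slc3a2 Srp14 (r = 0.994) and for Slc38a4 Gpsm2 (r = 0.991). Slc7a11 ran closest to Lrrfip1 (r = 0.987), Slc7a6 to Psmd2 (r = 0.986), Slc7a1 to Nrp2 (r = 0.985) and Slc38a1 to Insig2 (r = 0.972). Slc7a5 and Slc1a4, which were not called between days as counted, had lower best matches, Hsf4 (r = 0.899) and Abca3 (r = 0.826). Aars1 (listed as Aars) was also among the 3 closest to Slc7a5, with r = 0.878.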

How the data were processed

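The authors deposited 1 table of raw counts, with Ensembl genes in rows and the 12 libraries in columns. Per the labels, the RNA was polyadenylated and the kit stranded. Per the submitters' processing notes, HTSeq 0.11.0, HISAT2 2.2.1, limma, R 4.1.0, Trimmomatic 0.39 and FastQC 0.11.9 were used with GRCm39 (mm39). The sources used here do not give the annotation release or the strand setting. Symbols were found for 52081 of 55414 identifiers, older symbols being used for tRNA synthetases and a few others. Groups came from the labels. The members and lists were chosen with earlier results of these data known.

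Genes passing filterByExpr (14435) were fitted in edgeR 4.0.16 (R 4.3.3) with TMM scaling, 1 mean per group and a quasi-likelihood test over all 12 libraries. P-values are 2-sided, with Benjamini-Hochberg adjustment across every gene tested. The 6 comparisons were libraries labelled FHL2 against control libraries at day 2, at day 0 and over both days, day 2 against day 0 within each label, and the interaction. The fit was first run on simulated counts. These held neither the changes between days nor the wider spread of day 2, so they do not check the fit there. Levels are CPM, and CPM per kb divides by exon length in GENCODE M21, which also gave GC content for 99.8% of tested genes. It annotates the previous build, so only lengths, GC content and overlaps were taken from it, by identifier. The GC offset is a spline per library. Depth (10047708 to 21872139 counts) leaves Slc7a11 the least certain carrier.

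Named genes are the 10 carriers, Atf4, Slc38a2 and, per list and comparison, up to 3 called genes that averaged 5 CPM or more, taken by the size of their log2 fold change; some of these are not reported here. For likeness, the 3 genes closest to each carrier by Pearson's r were taken, not counting Gm, Rik and pseudogene names. Alternatives were RLE and upper-quartile scaling, other filters on low counts, DESeq2 1.42.0, limma-voom (limma 3.58.1), offsets for GC content and length, a replicate block, fits of only the groups compared, and fits without each library in turn or without the 3 libraries of day 2 in which the fewest genes had counts. No 2 libraries of a group agreed within sampling noise.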

Additional observations from a re-analysis of the deposited data

How the results depend on the processing

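Between days, 8 carriers were called in control libraries, beside 7092 to 8839 of all genes, whichever single library was left out. In libraries labelled FHL2 7 to 8 were called, beside 7058 to 8936 of all genes. With the GC offset the calls of Slc3a2 in both labels and Slc7a11 in control libraries were lost and Slc7a5 gained one in both labels. Over all settings no carrier value that was called changed direction. Of 1480 carrier values under alternatives, 29 gained a call and 17 lost it, and 49 changed sign, all of them uncalled and none beyond 0.489 in size.
Over all genes, leaving out 1 library gave 7058 to 8936 calls between days in libraries labelled FHL2 and 7092 to 8839 in control libraries. Between the labels it gave 146 to 404 at day 2, 1 to 10 at day 0 and 88 to 404 over both days, and 0 to 6 for the interaction. Carriers called between the labels then numbered 0 to 1 at day 2, 0 at day 0 and 0 to 2 over both days.
Between the labels at day 2, where 299 genes were called, there were 846 with no filter on low counts, 997 by DESeq2, 39 in a fit of those groups alone and 1606 once the 3 day 2 libraries of fewest genes were left out. At day 0, where 7 were called, there were 69 with no filter, 93 by DESeq2, 18 by limma-voom, 11 with the replicate block, 14 with the GC offset, 16 with GC and length offsets, 246 in a fit of those groups alone and 135 without the 3 libraries. Over both days, against 267, there were 632 with no filter, 778 by DESeq2 and 1835 without the 3 libraries. For the interaction, against 1, there were 2 with upper-quartile scaling, 91 with no filter, 73 by DESeq2, 2 with the GC offset, 5 with GC and length offsets and 243 without the 3 libraries. Leaving those libraries out keeps 1 day 2 library labelled FHL2, which is then assumed to vary like the others. The spread between libraries, as edgeR's common biological coefficient of variation, was 0.463 among day 2 libraries, 0.121 among day 0 libraries and 0.283 over all, and a fit of only the groups compared uses the spread of those groups.
Of the carriers, 1 was called at day 2 with no filter, beside 846 of the 24091 genes then tested. At day 0, 2 were called in a fit of those groups alone, for which the count over all genes is given above. These single-day counts leave out the fits without 1 library, given above. They also leave out the fit without the 3 libraries of fewest genes, which keeps 1 day 2 library labelled FHL2. Over both days 2 were called with no filter (beside 2.62% of all genes), 2 at a mean of 5 CPM (3.07%), 3 by DESeq2 (5.39%), 2 by limma-voom (2.49%), 2 with the GC offset (2.08%), 3 with GC and length offsets (2.24%), 3 without the 3 libraries (11.5%) and 0 with the replicate block and GC offset (1.48%), where Slc7a5 lost its call.
Replicate numbers were not taken to pair the libraries: deviations of same-numbered libraries correlated at -0.137 to 0.270, with 4 of 18 over 0.1, though in 10 of 18 the best match had the same number. With the replicate block and GC offset, 5387 genes were called between days in libraries labelled FHL2 and 5357 in control libraries. The block alone gave 7853 in libraries labelled FHL2 and 8014 in control libraries, the GC offset alone 5627 in libraries labelled FHL2 and 5680 in control libraries, and the fit with neither 8087 in libraries labelled FHL2 and 8246 in control libraries.
The reversed day changes among the genes reported here were all under offsets, and the cause was not tested. A change counts as reversed where the sign differed and either value was called, so a reversed value may itself be uncalled. Atf4 was uncalled as counted. Eprs1 as counted stood at -1.51 in libraries labelled FHL2 and -1.46 in control libraries, and Cebpg at -1.16 in control libraries. The reversed Eprs1 values were uncalled (adjusted p by edgeR of 0.783 labelled FHL2 and 0.579 control). With the GC offset in libraries labelled FHL2, Slc25a40 stood at 0.13, Gclm at 0.42 and Atf4 at -0.49, and in control libraries Cebpg stood at 0.21, Gclm at 0.45 and Atf4 at -0.63. With the block added, Slc25a40 stood at 0.13, Gclm at 0.42 and Atf4 at -0.49 in libraries labelled FHL2, and Cebpg at 0.21, Gclm at 0.46 and Atf4 at -0.63 in control libraries. With GC and length offsets, Slc25a40 stood at 0.33, Eprs1 at 0.040, Gclm at 0.51 and Atf4 at -0.66 in libraries labelled FHL2. In control libraries Slc38a2 stood at 0.058, Slc25a40 at 0.066, Cebpg at 0.27, Eprs1 at 0.075, Gclm at 0.53 and Atf4 at -0.74.
Depth limits Slc7a11 most, with 13 to 57 counts in a day 2 library.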
